A study of Mus musculus with 79 samples.

Results

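Genes that mark brain endothelium and the blood-brain barrier were followed through 2 brain regions, the ventral hippocampus (vHipp) and the medial part of the prefrontal cortex (mPFC), of mice exposed to chronic social defeat. They were chosen by symbol, with earlier results of the data known: Cldn5, Pecam1, Flt1, Cdh5, Ocln, Tjp1, Slco1a4, Mfsd2a, Abcb1a and Pdgfrb, 10 of the 55471 gene identifiers in the count table, of which 55144 were matched to a symbol. The question was whether barrier transcripts, Cldn5 first, differed between stressed and control mice and whether a single ketamine injection altered that difference.

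The mice were male CD-1 (ICR) animals labelled wild type, 9 to 10 weeks old, from different litters, and they yielded 79 bulk RNA libraries from 40 animals. One arm went through chronic social defeat stress (CSDS) for 21 days, in a modified form in which each mouse rejoined its cage mates, kept in groups of 4, after every defeat, and the other arm was group-housed controls (CTRL). Each stress arm received 1 intraperitoneal injection of saline or of ketamine at 10 mg per kg, on day 4 of monitoring in a semi-natural arena called the social box, and tissue was taken 7 days later. All groups had therefore been housed in the social box and injected, and every mouse was killed by isoflurane overdose. There were 10 mice in each of the 4 groups (CTRL saline, CTRL ketamine, CSDS saline, CSDS ketamine), with 10 libraries per group in each region except for 9 mPFC libraries of CSDS ketamine mice (the mPFC of mouse 5 was not analysed here). Both regions were punched, at 1 mm, from 200 micrometre slices of the same brains, so a library holds all cell types of the punch.

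Library totals lay between 11726129 and 41767119 counts, with a median of 19638060, and no pair of libraries was identical. The regional labels fitted the markers. The cortical genes Tbr1 (log2 difference 1.81), Fezf2 (0.89) and Rorb (0.37) were called higher in the mPFC, and all 3 hippocampal genes (Prox1, Zbtb20, Dsp) were called lower there, with a median log2 difference of -2.84. All 21 genes of the endothelial identity list were detected in every group. Several libraries stood apart. The 9 highest of 40 vHipp libraries in that list were all from CSDS mice (mice 11, 17, 4, 14, 20, 13, 9, 2 and 15 in descending order), and so were the lowest 2 (mice 7 and 5). Mice 13, 25 and 29 had almost no Pecam1 in either region. The vHipp of mouse 9 carried choroid plexus transcripts, with a summed level of 970 CPM (read counts scaled to a common library size) for 10 such genes where the CTRL vHipp libraries ran from 71.1 to 143.9. The stress comparisons of the vHipp are given with and without several of these libraries.

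In GRCm38 the counted genes are Cldn5 at chr16:18776847-18778262 on the plus strand, Cdh5 at chr8:104101625-104144511 on the plus strand, Abcb1a at chr5:8660077-8748575 on the plus strand and Pdgfrb at chr18:61045150-61085061 on the plus strand. On the minus strand lie Pecam1 at chr11:106654217-106750628, Flt1 at chr5:147561604-147726011, Ocln at chr13:100496507-100552718, Tjp1 at chr7:65296165-65527781, Slco1a4 at chr6:141805440-141856199 and Mfsd2a at chr4:122946850-122961188. Each value is for the whole protein-coding gene, so isoforms were not separated. Abcb1a shares 553 exon bases with Gm42686 on the other strand, which averaged 0.0238 CPM against 22.6 CPM for Abcb1a, and the strand setting of the counting is not given in the sources used here. Abcb1a also has a close paralog, Abcb1b, with mPFC and vHipp levels of 0.107 and 0.292 RPKM (CPM per kilobase of exon), and reads that match both genes make the split between them uncertain.

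Brain capillaries form a barrier because their endothelial cells are sealed by tight junctions, take up little by vesicles and carry dedicated transporters. Pericytes wrap the same capillaries and keep that state in place. Claudin-5 (Cldn5) is the main claudin of the brain endothelial tight junction, occludin (Ocln) is a second membrane protein of that junction, and ZO-1 (Tjp1) is the scaffold beneath it, which many other cells use as well. VE-cadherin (Cdh5) and Pecam1 hold endothelial cells to each other. Flt1 is a receptor for VEGF. Mfsd2a carries lysolipids into the brain and restrains vesicular transport, Slco1a4 moves organic anions, and Abcb1a encodes the efflux pump P-glycoprotein. Pdgfrb is the pericyte receptor for PDGF-B. Loss of Cldn5 after social defeat has been described in other work, which is why it was looked at first. The region, strain and timing of that work were not set beside those here, so the values below are no test of it.

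The 250 bases before the transcription start are shown for Cldn5, for Flt1 and Slco1a4, whose levels varied with Cldn5 from mouse to mouse, and for Mfsd2a, which was called higher in the vHipp than in the mPFC. They were taken from RefSeq on GRCm38.p6, in which 7 of the 10 genes had an entry, and are written 5′ to 3′ on the strand of the gene. Pecam1, Cdh5 and Pdgfrb were not matched. Cldn5 is at chr16:18776597-18776846 (plus strand), Flt1 at chr5:147726012-147726261 (minus), Slco1a4 at chr6:141856221-141856470 (minus) and Mfsd2a at chr4:122961189-122961438 (minus). Capitals mark matches to the letters searched on both strands.
Cldn5: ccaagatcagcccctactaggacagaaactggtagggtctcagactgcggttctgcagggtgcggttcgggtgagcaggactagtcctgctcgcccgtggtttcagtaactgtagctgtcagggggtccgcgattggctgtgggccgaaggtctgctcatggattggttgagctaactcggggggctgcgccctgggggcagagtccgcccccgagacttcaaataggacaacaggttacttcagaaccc
Flt1: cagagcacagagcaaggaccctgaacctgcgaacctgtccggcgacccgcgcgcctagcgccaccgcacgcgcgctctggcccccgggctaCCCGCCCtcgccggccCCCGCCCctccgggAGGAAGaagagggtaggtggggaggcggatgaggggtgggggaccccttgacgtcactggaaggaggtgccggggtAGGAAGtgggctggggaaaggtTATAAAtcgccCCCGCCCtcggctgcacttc
Slco1a4: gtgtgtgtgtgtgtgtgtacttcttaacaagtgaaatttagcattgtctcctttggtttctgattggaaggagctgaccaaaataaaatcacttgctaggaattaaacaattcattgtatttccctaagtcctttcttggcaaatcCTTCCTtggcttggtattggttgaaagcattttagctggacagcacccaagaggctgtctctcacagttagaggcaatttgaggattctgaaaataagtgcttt
Mfsd2a: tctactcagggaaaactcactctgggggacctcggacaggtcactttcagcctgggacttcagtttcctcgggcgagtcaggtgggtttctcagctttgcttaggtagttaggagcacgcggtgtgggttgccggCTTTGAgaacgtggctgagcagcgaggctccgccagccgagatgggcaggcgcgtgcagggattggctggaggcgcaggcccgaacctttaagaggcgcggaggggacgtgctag
The letters searched were CCGGAAG and AGGAAG for ETS factors, which share part of their letters, GTAAACA for FOX factors, CTTTGA for TCF, GGGCGGG for SP1, TATAAA for a TATA box and CACGTG for an E-box. In the same 250-base window these were present in 6.91%, 29.5%, 3.17%, 13.8%, 23.4%, 12.4% and 6.02% of 32841 promoters, in that order. The Cldn5 window held none of them. Flt1 held AGGAAG at -129 and -53, the reverse complement of GGGCGGG at -159, -143 and -20, and TATAAA at -31, counted from the start. Slco1a4 held the reverse complement of AGGAAG at -104, and Mfsd2a held CTTTGA at -115. The windows also differed in composition, with a GC content of 70.4% and 23 CpG in Flt1, 61.6% and 17 in Mfsd2a, 59.6% and 12 in Cldn5, and 39.2% and 0 in Slco1a4, against a median GC content of 52.4% over all promoters. These are descriptions of letters and show no binding.

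Per length, Cldn5 was the most abundant of the 10 genes in both regions and was followed by Tjp1. Mean levels in the mPFC were 19.7 ± 4.48 RPKM for Cldn5 (SD, n = 39) and 15.0 ± 1.75 RPKM for Tjp1, and Cldn5 was the higher in 33 of 39 libraries. Pdgfrb (6.93 RPKM), Mfsd2a (6.25), Slco1a4 (5.31), Flt1 (5.22), Abcb1a (4.61), Cdh5 (3.41), Pecam1 (2.34) and Ocln (1.36) came next in the mPFC. Slco1a4 and Flt1 could not be ordered, since Slco1a4 was the higher in 21 of 39 mPFC and 18 of 40 vHipp libraries. In the vHipp, Cldn5 (16.8 ± 4.49 RPKM, n = 40) was above Tjp1 (13.6 ± 1.91 RPKM) in 26 of 40 libraries. Mfsd2a (7.87 RPKM) stood above Pdgfrb (5.01 RPKM) in 40 of 40 vHipp libraries, whereas Pdgfrb was above Mfsd2a in 30 of 39 mPFC libraries. Ocln (2.49 RPKM) and Cdh5 (2.45 RPKM) were not distinguishable in the vHipp, with Ocln higher in 22 of 40 libraries.

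Among the 23 claudin genes, Cldn5 ranked second by mean RPKM in both regions. The highest mean was that of Cldn11, the claudin of myelin, at 23.9 ± 18.8 RPKM in the mPFC and 20.8 ± 8.43 RPKM in the vHipp. Cldn11 ranged from 4.77 to 88.2 RPKM in the mPFC and was above Cldn5 in 20 of 39 mPFC and 25 of 40 vHipp libraries, so the order of the pair does not hold library by library. Cldn12 (9.79 RPKM) and Cldn10 (9.44 RPKM) followed Cldn5 in the mPFC, while Cldn10 reached 10.6 RPKM and Cldn12 7.20 RPKM in the vHipp. Cldn22 was next, at 0.722 RPKM in the mPFC and 3.33 RPKM in the vHipp.

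Cldn5 was not detectably lower after social defeat in either region, and in the vHipp its mean was higher in CSDS than in CTRL mice. In the mPFC, Cldn5 in CTRL saline mice ran from 23.9 to 42.1 CPM with a median of 28.3, and in CSDS saline mice from 19.9 to 39.4 CPM with a median of 27.0. In ketamine-treated mice the mPFC values ran from 17.5 to 38.6 CPM with a median of 26.9 in CTRL and from 17.8 to 43.8 CPM with a median of 29.4 in CSDS. The 4 mPFC groups overlapped almost completely. The mPFC log2 fold change of CSDS against CTRL over both treatments was -0.01 (SE 0.10, 95% interval -0.21 to 0.19, unadjusted edgeR p = 0.921), with 27.9 ± 6.76 CPM in 19 CSDS and 28.1 ± 6.10 CPM in 20 CTRL libraries.

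In the vHipp, Cldn5 ran from 15.6 to 30.9 CPM with a median of 20.8 in CTRL saline mice and from 14.6 to 36.9 CPM with a median of 26.2 in CSDS saline mice. In CTRL ketamine mice it ran from 19.1 to 24.4 CPM with a median of 21.3, and in CSDS ketamine mice from 15.8 to 44.7 CPM with a median of 24.0. The CTRL values lay inside the range of the CSDS values, which reached both higher and lower, and 14 of 20 CSDS libraries were above the CTRL median. The log2 fold change over both treatments was 0.24 (SE 0.11, 95% interval 0.03 to 0.45), from 21.7 ± 3.44 CPM in 20 CTRL to 25.7 ± 7.92 CPM in 20 CSDS libraries. Its unadjusted edgeR p was 0.0281 and its p adjusted over all 28991 genes was 0.443, so it was not called.

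A separate permutation test of Cldn5 within each treatment, on log2(CPM + 0.5), gave no difference that passed 0.05 in 4 comparisons. The difference of CSDS minus CTRL in the mPFC was -0.10 in saline mice (95% interval -0.35 to 0.14, permutation p = 0.392) and 0.07 in ketamine mice (-0.30 to 0.45, exact permutation p = 0.687). In the vHipp it was 0.18 in saline mice (-0.15 to 0.50, permutation p = 0.267, 8 of 10 CSDS mice above the CTRL median) and 0.21 in ketamine mice (-0.15 to 0.57, permutation p = 0.208, 6 of 10 above). Adjusted over the 4 comparisons these p-values were 0.523, 0.687, 0.523 and 0.523. Taken relative to the mean log2(CPM + 0.5) of the endothelial identity list, the 2 vHipp differences were 0.0045 (permutation p = 0.966) and 0.05 (permutation p = 0.419), and those in the mPFC were -0.03 (permutation p = 0.613) and 0.04 (exact permutation p = 0.665). All tests were two-sided. A difference in bulk tissue of this kind cannot separate the number of endothelial cells from the RNA of each cell.

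**Figure D1:**
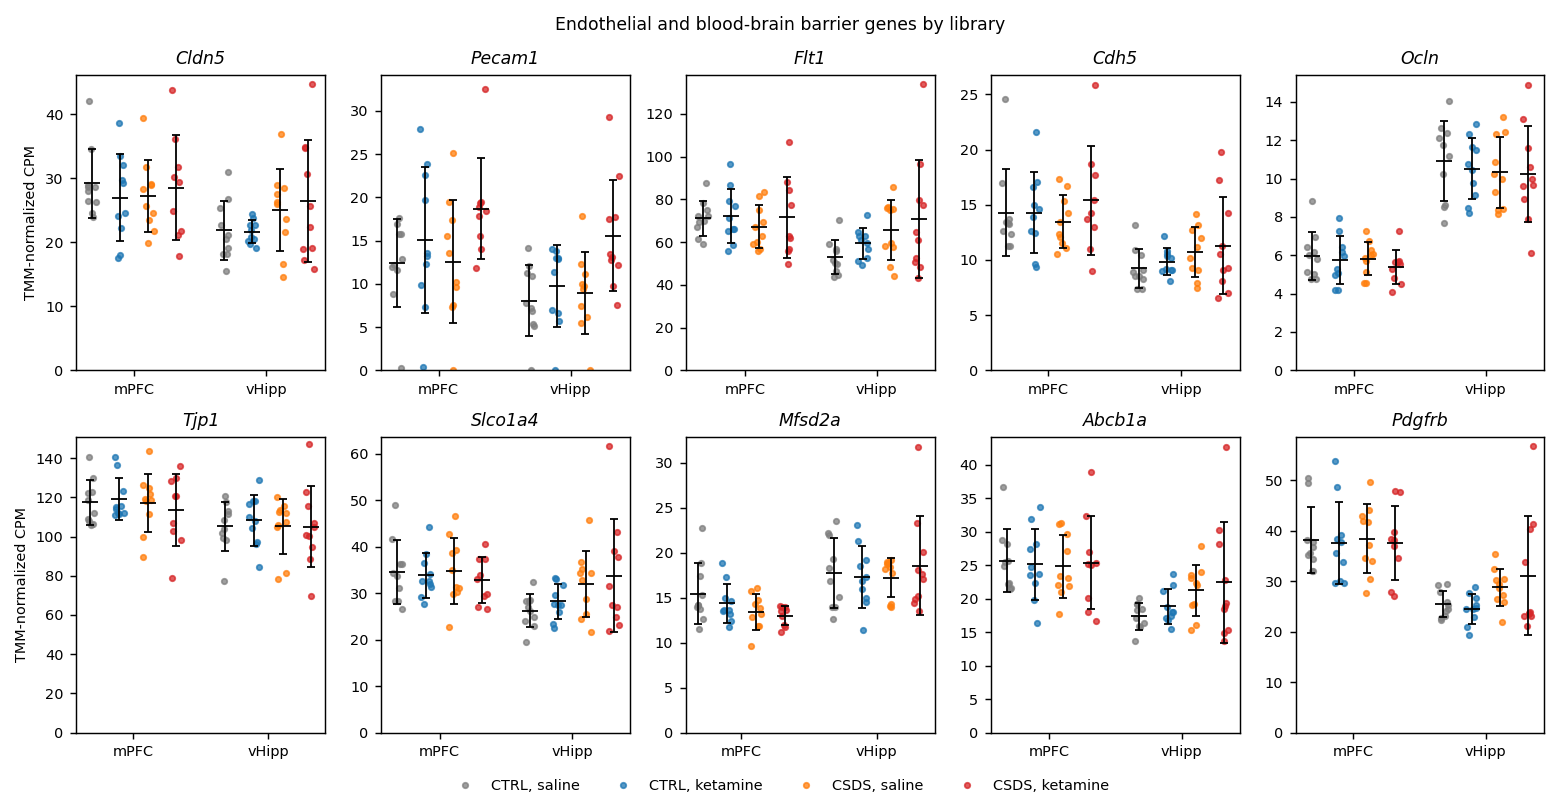
TMM-normalized CPM (y axis, from 0) of each of the 10 genes in every library, by region (x axis) and group (color); bars are the mean and SD. In the vHipp Cldn5 spans 19.1 to 24.4 CPM in CTRL ketamine mice, while single CSDS ketamine libraries reach 44.7 CPM for Cldn5 and 133.9 CPM for Flt1, and Pecam1 is near 0 in 3 mice.

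None of the 10 genes passed an adjusted p of 0.05 in any stress comparison of the vHipp, and 0% of the 28991 genes tested did. At an unadjusted p under 0.05, 5 of 10 genes were higher in CSDS vHipp over both treatments, where 5.31% of all genes tested were higher and 9.71% differed in either direction. These 5 were Pdgfrb, Flt1, Slco1a4, Abcb1a and Cldn5, with adjusted p-values of 0.359 to 0.443. They include the transporter and efflux pump of the endothelial membrane, a VEGF receptor, the pericyte receptor and the tight junction claudin. The others varied with Cldn5 between vHipp libraries (Pearson r of 0.62 to 0.77), so these are not 5 independent results.

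Flt1 in the vHipp ran from 43.6 to 70.4 CPM (median 50.9) in CTRL saline, 49.3 to 72.6 (60.2) in CTRL ketamine, 44.2 to 85.7 (67.4) in CSDS saline and 43.1 to 133.9 (62.9) in CSDS ketamine mice. Its log2 fold change over both treatments was 0.28 (SE 0.10, unadjusted edgeR p = 0.0064), and 9 of 20 CSDS libraries exceeded every CTRL library. Slco1a4 ran from 19.6 to 32.4 CPM (median 26.6) in CTRL saline, 22.6 to 33.4 (27.6) in CTRL ketamine, 21.6 to 45.7 (33.6) in CSDS saline and 21.8 to 61.6 (29.5) in CSDS ketamine mice. The Slco1a4 log2 fold change was 0.27 (SE 0.10, p = 0.00702, edgeR), again with 9 of 20 CSDS libraries above every CTRL library.

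Abcb1a in the vHipp ran from 13.6 to 20.0 CPM (median 17.7) in CTRL saline, 15.4 to 23.7 (18.1) in CTRL ketamine, 15.3 to 27.9 (22.3) in CSDS saline and 13.7 to 42.8 (19.2) in CSDS ketamine mice. Its log2 fold change was 0.27 (SE 0.10, unadjusted edgeR p = 0.0083), and 15 of 20 CSDS libraries were above the CTRL median. Pdgfrb ran from 22.4 to 29.5 CPM (median 24.9) in CTRL saline, 19.4 to 28.9 (24.5) in CTRL ketamine, 21.8 to 35.3 (29.0) in CSDS saline and 21.2 to 56.8 (23.8) in CSDS ketamine mice. The Pdgfrb log2 fold change was 0.26 (SE 0.09, p = 0.00545, edgeR). In CSDS ketamine mice the median of Pdgfrb was no higher than in CTRL ketamine mice, and 4 of 10 libraries lay above every CTRL ketamine library.

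The remaining endothelial genes had values of 0.20 (Cdh5, unadjusted p = 0.0618) and 0.40 (Pecam1, p = 0.182) on the log2 scale. Mfsd2a (0.03), Tjp1 (-0.02) and Ocln (-0.06) were close to 0, with 95% intervals of -0.16 to 0.21, -0.15 to 0.11 and -0.23 to 0.12. The median over the 10 genes was 0.25, beside a median of -0.0025 over all genes tested.

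Within saline mice, 3 of 10 genes had an unadjusted p under 0.05 in the vHipp, all higher in CSDS, where 3.07% of all genes were higher and 5.57% differed in either direction. These were Flt1 (log2 fold change 0.31, p = 0.0302, edgeR), Slco1a4 (0.29, p = 0.0401) and Abcb1a (0.29, p = 0.0416). The count was 0 when any 1 of mice 2, 4, 9, 13, 15 or 38 was left out, and 6 without mice 5, 7, 11 and 17 (all CSDS, left out after seeing the data), where 4.71% of all genes were higher. Within ketamine mice 1 of 10 did, Pdgfrb (0.34, p = 0.0095), where 2.81% of all genes were higher and 5.42% differed in either direction. That count was 0 without mouse 11 and 5 without mouse 5 or mouse 6, where 3.5% and 3.62% of all genes were higher. No gene of the 10 had a stress by ketamine interaction at an unadjusted p under 0.05 in the vHipp, where 2.84% of all genes did, so the differing counts of the treatments are no sign that the treatments differed.

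The vHipp counts moved with the libraries included. Mice 11 and 17 were the 2 highest of the 40 vHipp libraries in the endothelial identity list and both were CSDS mice, so leaving them out takes high values from the CSDS side alone. Without the vHipp of mice 11 and 17, a choice made after seeing the data, 1 of 10 genes had an unadjusted p under 0.05 (Pdgfrb, log2 fold change 0.15, p = 0.0407, edgeR), where 4.21% of all genes were higher and 8.66% differed in either direction, so the count was then near the share of all genes. Cldn5 was then 0.15 (p = 0.144), Flt1 0.16 (p = 0.0523), Slco1a4 0.16 (p = 0.0509) and Abcb1a 0.15 (p = 0.0656). When the 2 lowest vHipp libraries of that list, mice 7 and 5, also CSDS, were left out together with them, 5 of 10 genes were higher at that threshold, where 4.7% of all genes were higher and 9.53% differed in either direction, with Cldn5 at 0.21 (p = 0.0249), Flt1 at 0.20 (p = 0.0154), Slco1a4 at 0.21 (p = 0.0151), Abcb1a at 0.19 (p = 0.0184) and Pdgfrb at 0.18 (p = 0.0144). That choice was also made after seeing the data. It takes both ends from the CSDS side alone, which narrows the spread of that side and can lower p-values. Counts without these 4 mice, here and elsewhere, are therefore no separate support for a stress difference. Leaving out each vHipp library in turn gave 4 to 6 of 10 genes, where 4.49% to 6.46% of all genes were higher, and Cldn5 lost an unadjusted p under 0.05 in 2 of 40 such fits, with p = 0.0683 without mouse 11 and p = 0.0558 without mouse 9. Flt1, Slco1a4, Abcb1a and Pdgfrb kept theirs in all 40.

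**Figure D2:**
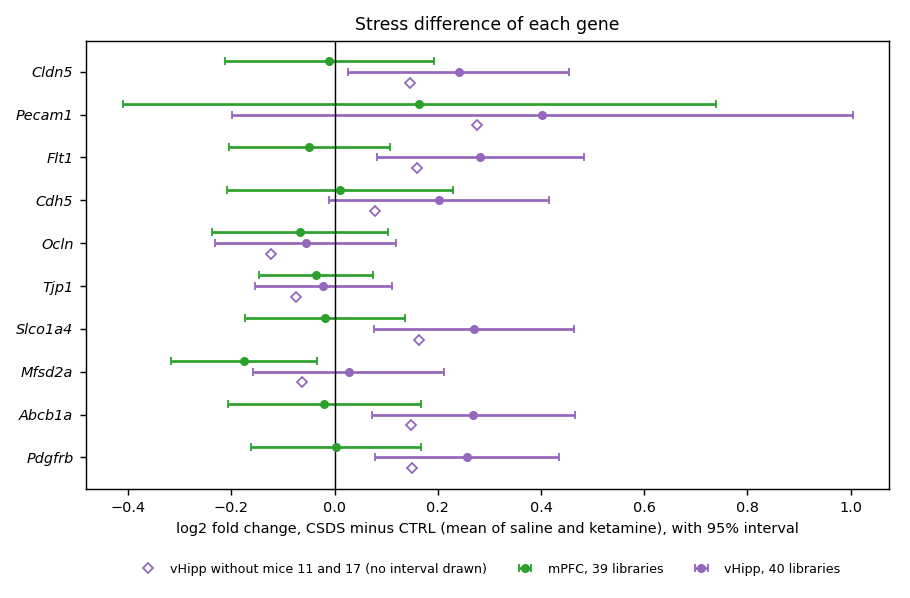
Log2 fold change of CSDS against CTRL (x axis, mean of the saline and ketamine contrasts) for each of the 10 genes in the mPFC (green) and vHipp (purple), with 95% intervals; open diamonds are the vHipp without mice 11 and 17. In the vHipp 5 intervals lie above 0 and in the mPFC only that of Mfsd2a excludes 0, from the lower side; each diamond lies to the left of its vHipp point.

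Of the vessel wall lists, those of endothelial identity and pericytes held more genes higher than lower in CSDS vHipp, and that of smooth muscle did not. These lists were drawn up with earlier results of the data known, and their counts are descriptions at an unadjusted p under 0.05 over both treatments, with no gene called after adjustment. They stand beside 5.31% of all genes higher and 4.4% lower in that comparison. Genes of a list were measured in the same libraries and are not independent, so a count is not that many separate results. Of 21 endothelial identity genes, 13 were higher in CSDS and 0 lower, with a median log2 fold change of 0.25. Among them were the VEGF receptor Kdr (0.36, p = 0.00155, edgeR), the junction adhesion gene Esam (0.25, p = 0.00416), Cd34 (0.32, p = 0.00447) and Emcn (0.34, p = 0.00571). Of 12 pericyte genes 9 were higher and 0 lower, with a median of 0.32, led by the potassium channel gene Kcnj8 (0.62, p = 4.13e-05), Rgs5 (0.40, p = 9.1e-05), Abcc9 (0.38, p = 0.00341) and Atp13a5 (0.33, p = 0.00401). Without mice 11 and 17, 5 of 21 endothelial identity genes and 6 of 12 pericyte genes were higher at that threshold, 1 pericyte gene was lower, and the medians were 0.13 and 0.18, where 4.21% of all genes were higher. Without mice 5, 7, 11 and 17 the counts were 8 and 7 higher, again with 1 pericyte gene lower, and the medians were 0.18 and 0.23, where 4.7% of all genes were higher. Of 6 smooth muscle genes 0 were at the threshold over both treatments (median -0.01), with 1 lower in saline mice (median -0.32, Cnn1), where 2.5% of all genes were lower, and 2 higher in ketamine mice (median 0.28, Mylk 0.30 and Myl9 0.33), where 2.81% were higher. The stress by ketamine interaction of smooth muscle genes was above 0 at that threshold for 3 of 6 (median 0.62), where 1.5% of all genes were.

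Beside the same 5.31% of all genes, barrier transporters were higher in 6 of 12 cases and lower in 0, with a median of 0.12. Slco2b1 (0.31, p = 0.00243, edgeR), the thyroid hormone carrier Slco1c1 (0.29, p = 0.00369), Slc22a8 (0.27, p = 0.0196) and the lactate carrier Slc16a1 (0.16, p = 0.0236) had the smallest p-values, whereas the most abundant genes of the list per length were Slc3a2 and the glucose carrier Slc2a1. Of 15 other junction genes, 3 were higher (Jam2 0.28, F11r 0.29 and Lsr 0.26), 0 were lower and the median was 0.07. Of 18 genes of Wnt barrier signalling, 6 were higher and 1 lower (median 0.15), among them the receptor Fzd4 (0.24, p = 0.00961), Foxf2 (0.32, p = 0.0107), the co-receptor Lrp5 (0.20, p = 0.0124) and the ligand Wnt7a (0.21, p = 0.0128). Of 17 genes of VEGF, PDGF and angiopoietin signalling, 8 were higher and 0 lower (median 0.19). The ligands Vegfa (0.31, p = 0.00123), Pgf (0.30, p = 0.00129) and Vegfb (0.16, p = 0.00794) were among the 8, beside Kdr.

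These 4 lists also moved with the libraries. Without mice 11 and 17 the numbers higher were 2 of 12 transporters, 1 of 15 junction genes, 1 of 18 Wnt genes (1 lower) and 5 of 17 VEGF, PDGF and angiopoietin genes, beside 4.21% of all genes. With mice 5 and 7 left out as well they were 4, 2, 5 (1 lower) and 6, beside 4.7%, and without mouse 9 alone they were 5, 1, 6 (1 lower) and 6, beside 4.91%. The endothelial identity list then had 9 and the pericyte list 9 higher and 1 lower.

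Genes of endothelial activation and leak went both ways, with 2 of 10 higher and 2 lower, beside 5.31% and 4.4% of all genes. The adhesion molecule Vcam1 (0.27, p = 0.0144, edgeR) and Angpt2 (0.41, p = 0.0314) were higher, and Lcn2 (p = 0.000405) and the selectin Selp (p = 0.00753) were lower in CSDS vHipp. These 2 genes were near 0, so no fold change is given. Lcn2 had 0 counts in 29 of 40 vHipp libraries and at most 71, in a CTRL saline library, and Selp had 0 counts in 26 of 40 and at most 4. Sele, of the same list, was at 0 in all 10 CTRL saline vHipp libraries. Without mice 11 and 17 the list had 0 higher and 2 lower, beside 4.21% and 4.46%. Some genes are in more than 1 list: Kdr, Tek and Tie1 count as endothelial identity and as VEGF, PDGF and angiopoietin genes, Sox17 as identity and Wnt, Ctnnb1 as junction and Wnt, and Angpt2 as activation and as angiopoietin.

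Markers of other cells moved in the same comparison, and their part in the vascular values was not tested. The background was again 5.31% of all genes higher and 4.4% lower. All 6 microglial markers were higher in CSDS vHipp at an unadjusted p under 0.05 (median log2 fold change 0.27, Cx3cr1 0.33 with p = 0.00128, edgeR), as were 4 of 6 astrocyte markers (median 0.24, Kcnj10 0.27 with p = 0.00435). None of 6 neuronal or 6 oligodendrocyte markers was at that threshold. Of 10 choroid plexus genes 3 were higher (median 0.36), among them Ttr (p = 0.000821), whose median count was 6.5 in CTRL saline and 7.5 in CSDS saline vHipp while 1 CSDS saline library held 11721. The number was 2 without mouse 9 (median 0.08), where 4.91% of all genes were higher. It was 0 without mice 9 and 13 (median -0.04), where 1245 of 28797 genes were. By treatment 6 of 10 were higher in saline mice (median 0.59), where 3.07% of all genes were, and 0 of 10 in ketamine mice (median 0.01), where 2.81% were, and the interaction was below 0 for 2 of 10 at that threshold, where 1.34% of all genes were. Of 5 erythroid genes 1 was higher (Alas2 0.51), and the cortical gene Rorb was higher (0.28), while 1 of 9 fibroblast and meningeal genes (Aldh1a2 -0.47) and 1 of 3 hippocampal genes (Prox1 -0.43, p = 0.00748) were lower. The hippocampal list had a median of -0.24, with 0 of 3 genes above 0.

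The summed level of the microglial markers ran from 181 to 276 CPM in CTRL saline, 217 to 303 in CTRL ketamine, 232 to 370 in CSDS saline and 223 to 653 in CSDS ketamine vHipp. That of the astrocyte markers ran from 3222 to 4518, 3717 to 5080, 3478 to 5341 and 3135 to 10727 CPM in the same order. The summed endothelial identity level ran from 215 to 296, 226 to 294, 201 to 391 and 209 to 521 CPM, and that of the pericyte genes from 159 to 220, 163 to 212, 154 to 294 and 170 to 459 CPM. No marker of these 4 lists was at 0 throughout a group. In mouse 11, which held the highest vHipp value of the endothelial, pericyte, microglial and astrocyte sums, the neuronal sum was 4999 CPM, the lowest of the CSDS ketamine group. Mouse 17 had sums of 398 CPM for endothelial and 383 CPM for microglial markers. The spread of the endothelial score, a mean log2(CPM + 0.5) over the 21 genes, was an SD of 0.14 and 0.12 in the CTRL saline and CTRL ketamine groups and 0.27 and 0.41 in the CSDS saline and CSDS ketamine groups. Without mice 11 and 17, 4 of 6 microglial and 1 of 6 astrocyte markers were higher at an unadjusted p under 0.05, where 4.21% of all genes were.

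**Figure D3:**
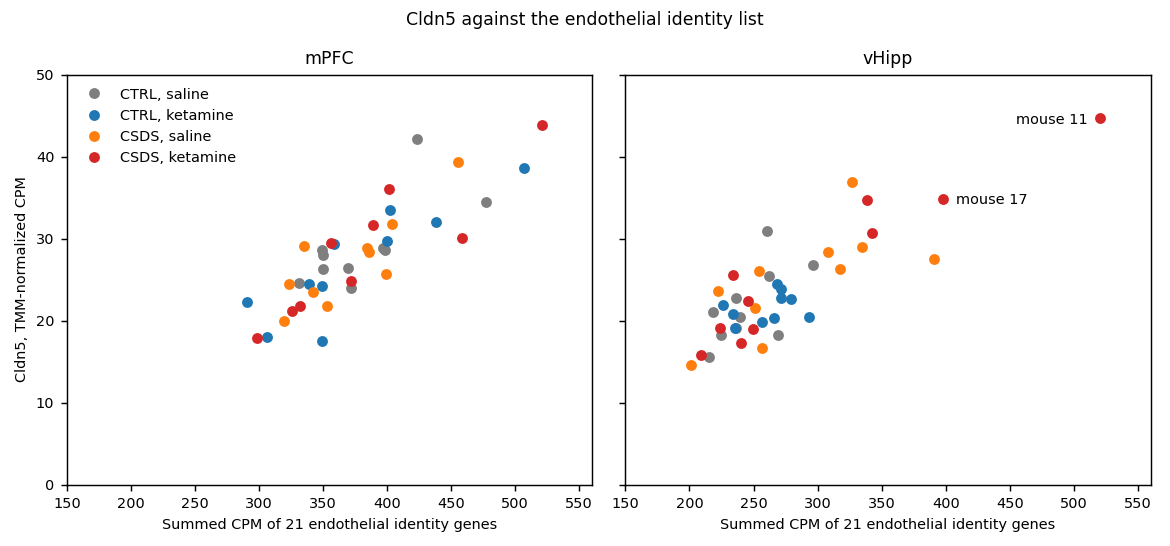
Cldn5 in TMM-normalized CPM (y axis, from 0) against the summed CPM of 21 endothelial identity genes (x axis), 1 point per library, with the mPFC on the left and the vHipp on the right. In the vHipp the CTRL libraries lie between 215 and 296 on the x axis while CSDS libraries extend to 521, and Cldn5 is high where the endothelial sum is high in both regions.

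In the mPFC the barrier genes differed little between CSDS and CTRL mice. None of the 10 was called, as for all 28993 genes tested (0%), and over both treatments 1 of 10 had an unadjusted p under 0.05, where 3.52% of all genes did and 1.98% were lower in CSDS. That gene was Mfsd2a, the lysolipid carrier. Social rank was not used here, so each group pools dominant and subordinate mice. The study compared stressed with control mice within rank, with the social box in its model. It reported differentially expressed genes mainly in the mPFC of dominant ketamine-treated mice, a comparison not made here. In the mPFC Mfsd2a ran from 11.5 to 22.7 CPM (median 14.1) in CTRL saline, 11.7 to 18.8 (13.6) in CTRL ketamine, 9.58 to 16.1 (13.5) in CSDS saline and 11.1 to 14.1 (13.5) in CSDS ketamine mice. The highest Mfsd2a values were in CTRL mice, and the 4 medians were close.

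The log2 fold change of Mfsd2a over both treatments in the mPFC was -0.17 (SE 0.07, 95% interval -0.32 to -0.03, unadjusted edgeR p = 0.0162), with 13.2 ± 1.58 CPM in 19 CSDS and 14.9 ± 2.80 CPM in 20 CTRL libraries. In saline mice alone it was -0.20 (p = 0.0406), the single gene of the 10 at that threshold, where 2.94% of all genes were and 1.56% were lower. In ketamine mice 0 of 10 genes had an unadjusted p under 0.05, against 5.8% of all genes. The Mfsd2a value was -0.08 (p = 0.235) when mice 9 to 12 and 29 to 32, the third of 5 sets of consecutive mouse numbers, were left out, and 0 of 10 genes were then at that threshold.

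Most other vascular lists had few or no genes at the threshold in the mPFC over both treatments. At an unadjusted p under 0.05 there were 0 of 21 endothelial identity genes (median log2 fold change -0.01), 0 of 12 pericyte genes (0.02), 0 of 12 barrier transporters (-0.04), 0 of 15 junction genes (0.05) and 0 of 18 Wnt genes (-0.02). Vegfa was higher in CSDS (0.11, p = 0.0455, edgeR) and was the 1 such gene of 17 in its list, where 449 of the 28993 genes tested were higher. Lcn2 (p = 0.00135) and Lrg1 (-0.58, p = 0.0265) were lower, 2 of 10 activation genes, where 1.98% of all genes were lower. In ketamine mice 4 of 10 activation genes were lower, where 3.38% of all genes were, namely Selp (p = 0.0107), Sele (p = 0.0268), Lrg1 (-0.80, p = 0.0308) and Lcn2 (p = 0.035), and in saline mice 1, Lcn2 (p = 0.00929). Selp and Sele had 0 counts in 25 and 29 of 39 mPFC libraries, and their highest counts, 19 and 14, were in CTRL ketamine mice. Lcn2 had a median of 3 counts, with its highest count in a CTRL saline library, and Lrg1 a median of 16. The choroid plexus genes Ttr (p = 0.00437, median 5 counts, at most 470 in a CTRL ketamine library) and Clic6 (-0.66, p = 0.0289, median 11 counts) were lower as well, 2 of 10, and the smooth muscle, fibroblast, erythroid, astrocyte, microglial, oligodendrocyte, neuronal and hippocampal lists had none.

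Ketamine itself, 7 days after the injection, gave no call among the 10 genes. At an unadjusted p under 0.05 there were 0 of 10 in CTRL mPFC (3.64% of all genes), 0 of 10 in CSDS mPFC (4.32%), 0 of 10 in CTRL vHipp (2.88%) and 0 of 10 in CSDS vHipp (2.9%), and the stress by ketamine interaction in the mPFC gave 0 of 10 (5.31%). After adjustment 0% of all genes were called in each of these comparisons. For Cldn5 the ketamine log2 fold changes were -0.11 in CTRL and 0.06 in CSDS mPFC, and -0.02 in CTRL and 0.08 in CSDS vHipp, with 95% intervals of -0.40 to 0.17, -0.23 to 0.35, -0.32 to 0.29 and -0.23 to 0.38. The interaction for Cldn5 was 0.18 (95% interval -0.23 to 0.58) in the mPFC and 0.09 (-0.34 to 0.52) in the vHipp. The stress and ketamine comparisons of a region share groups, so they are not independent of each other.

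Between the regions, Cdh5, Pdgfrb, Abcb1a and Cldn5 were higher and Ocln and Mfsd2a lower in the mPFC. These 6 of the 10 genes were called at an adjusted edgeR p under 0.05, in a comparison that called 48.9% of the 31534 genes tested, 24.5% higher and 24.4% lower in the mPFC, so the count was near the share of all genes and is not a result about the 10. Higher in the mPFC were Cdh5 (log2 difference 0.44, SE 0.08, adjusted p = 1.14e-06), Pdgfrb (0.43, SE 0.06, adjusted p = 6.56e-09), Abcb1a (0.30, SE 0.07, adjusted p = 0.000169) and Cldn5 (0.20, SE 0.07, adjusted p = 0.0233). Lower in the mPFC were Ocln (-0.92, SE 0.06, adjusted p = 2.95e-23) and Mfsd2a (-0.38, SE 0.06, adjusted p = 4.67e-08).

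Ocln was the gene with the widest separation, at 5.75 ± 1.07 CPM in 39 mPFC libraries (4.08 to 8.85) and 10.5 ± 1.97 CPM in 40 vHipp libraries (6.14 to 14.9), with 27 of 39 mPFC libraries below every vHipp library. Cdh5 stood at 14.3 ± 3.72 against 10.3 ± 2.72 CPM. Mfsd2a stood at 14.1 ± 2.42 against 17.7 ± 3.81 CPM. Occludin and Mfsd2a therefore had the direction opposite to that of claudin-5 and VE-cadherin.

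The remaining 4 genes were not called, with log2 differences of 0.45 for Pecam1 (adjusted p = 0.0749, edgeR), 0.14 for Flt1 (adjusted p = 0.0642), 0.09 for Tjp1 (adjusted p = 0.0729) and 0.14 for Slco1a4 (adjusted p = 0.0647). With the mouse as replicate block, which pairs the regions of one animal, 9 of 10 were called, where 49% of all genes were (24.3% higher and 24.7% lower in the mPFC), Flt1 being the exception (adjusted p = 0.0655), and Pecam1 reached an adjusted p of 1.4e-05 at a nearly equal difference of 0.45. Scaling by library totals called 10 of 10, and 48.9% of all genes. Cldn5 was not called without the first or the second set of mouse numbers (0.11, adjusted p = 0.244, and 0.16, adjusted p = 0.0676).

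Beside the 48.9% of all genes called between the regions (24.5% higher and 24.4% lower in the mPFC), the vascular lists had these counts. Of 21 endothelial identity genes 14 were called higher and 1 lower in the mPFC (median 0.27), with Cd34 at 1.53. Of 12 pericyte genes 6 were higher and 0 lower (Zic1 1.90, Anpep 1.01), of 12 transporters 2 were higher and 3 lower (Abcb1b -1.52, Slc3a2 0.18) and of 15 junction genes 10 were higher and 3 lower (Ctnnd1 0.82, Cgn 1.13, Tjp3 -2.83). The transporters, at 5 of 12 called, and the pericyte genes, at 6 of 12, were near the share of all genes. Of 18 Wnt genes 6 were higher and 7 lower, of 17 VEGF, PDGF and angiopoietin genes 10 higher and 4 lower (Nrp1 -2.22), and of 10 activation genes 6 higher and 1 lower. Smooth muscle (5 of 6 higher and 1 lower, median 1.63), fibroblast and meningeal (8 of 9 higher, median 1.17) and erythroid genes (5 of 5 higher, median 1.02) were higher in the mPFC too, and their part in the regional differences was not tested. Astrocyte markers were called lower in 4 cases and higher in 1 of 6, neuronal markers lower in 4 of 6, choroid plexus genes higher in 3 and lower in 5 of 10, microglial markers higher in 1 of 6 and oligodendrocyte markers in 0 of 6. These list counts come from the fit without pairing. With the mouse as replicate block there were 13 of 21 endothelial identity genes higher and 1 lower, 7 of 12 pericyte genes, 9 of 9 fibroblast and meningeal genes and 2 of 6 microglial markers higher, 5 of 6 astrocyte markers lower, and 1 neuronal marker higher beside 4 lower, and the counts of the other lists named here were equal in both fits.

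The stress difference of the mPFC minus that of the vHipp was below 0 for all 10 genes, with a median of -0.23 beside 0.01 over all genes, and 0 were called (0% of all genes). Several of the 10 genes vary together between libraries, so these are not 10 separate results. At an unadjusted p under 0.05 it was below 0 for 3 of 10, Flt1 (-0.32, p = 0.0156, edgeR), Slco1a4 (-0.28, p = 0.0304) and Abcb1a (-0.28, p = 0.0479), where 3.33% of all genes were below 0 and 6.86% differed in either direction. For Cldn5 it was -0.24 (95% interval -0.54 to 0.06, p = 0.113). In the paired fit with the replicate block 4 of 10 genes were at that threshold, where 2.95% of all genes were below 0, with Mfsd2a (-0.20, p = 0.043) as the fourth. The count was 0 without the third or the fifth set of mouse numbers and 6 without the second, where 4.5% of all genes were below 0.

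From mouse to mouse, Pdgfrb, Cdh5, Flt1, Abcb1a and Slco1a4 each varied with Cldn5 in both regions, and Tjp1 showed no detectable relation with it in either. Correlations were taken over the deviations of each library from its group mean, so that group differences do not enter, and 34 relations were tested. Pecam1 was left out because its values fell into separate levels. Over 39 mPFC libraries Cldn5 correlated most with Pdgfrb (Pearson r = 0.87, Spearman rho = 0.88, both with permutation p = 1e-05, the smallest that 100000 pairings can give, adjusted p = 3.09e-05 and 4.25e-05, r = 0.86 without the 2 most extreme libraries). Next came Cdh5 (r = 0.79, rho = 0.76), Flt1 (r = 0.74, rho = 0.69) and Abcb1a (r = 0.67, rho = 0.62). Ocln (r = 0.55, rho = 0.49) and Slco1a4 (r = 0.53, rho = 0.57) were lower, and Tjp1 showed no detectable relation (r = 0.09, rho = 0.08, permutation p = 0.566 and 0.622). With the sets of mouse numbers removed r was 0.83 for Pdgfrb, 0.79 for Cdh5, 0.74 for Flt1, 0.72 for Abcb1a, 0.58 for Ocln, 0.75 for Slco1a4 and 0.21 for Tjp1.

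Over 40 vHipp libraries the correlations with Cldn5 were led by the same receptor and cadherin, with Pdgfrb at r = 0.77 and rho = 0.71, Cdh5 at r = 0.77 and rho = 0.75, Flt1 at r = 0.71 and rho = 0.69, Slco1a4 at r = 0.64 and rho = 0.54, and Abcb1a at r = 0.62 and rho = 0.55. Each of these had adjusted permutation p-values for r between 3.09e-05 and 5.67e-05. Without the 2 most extreme libraries r was 0.72, 0.69, 0.64, 0.50 and 0.52 in the same order, and with the sets of mouse numbers removed it was 0.80, 0.77, 0.75, 0.73 and 0.65. For Mfsd2a the relation with Cldn5 had r = 0.51 in the vHipp (rho = 0.43, adjusted permutation p = 0.00185 and 0.0123) and r = 0.34 in the mPFC (rho = 0.39, adjusted permutation p = 0.0647 and 0.0268), where it was 0.14 with the sets of mouse numbers removed. Ocln (r = 0.23, permutation p = 0.153) and Tjp1 (r = -0.13, permutation p = 0.418) showed no detectable relation with Cldn5 in the vHipp. Punch content, library preparation and the state of the vessels enter these correlations together and were not separated.

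The genes outside all lists whose pattern was most like that of Cldn5 were, over 39 libraries and 15522 genes in the mPFC, Acvrl1 (r = 0.85), an endothelial receptor, Pltp (0.85), Bcam (0.84), Vwa1 (0.82) and the basement membrane laminin Lamb2 (0.82). In the vHipp, over 40 libraries and 15361 genes, they were Lcat (0.89), Pltp (0.87), S100a16 (0.87), Tsc22d4 (0.86) and Metrn (0.86). These 5 vHipp genes were not assigned to a cell type. They lay above Pdgfrb (r = 0.77), the highest there among the barrier genes tested, whereas Pdgfrb in the mPFC (0.87) lay above the mPFC set. Pltp was the gene common to both sets of 5. These r values are the highest of many and are given as descriptions.

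The level of Cldn5 in one region of a mouse showed no detectable relation to its level in the other, whereas its level relative to other endothelial genes did. Over the 39 mice with both regions the levels had r = -0.02 and rho = 0.03 (permutation p = 0.906 and 0.845), and r was -0.24 with the sets of mouse numbers removed. Relative to the endothelial identity list of the same library, the 2 regions had r = 0.70 and rho = 0.73 (permutation p = 1e-05 for each, adjusted p = 3.09e-05 and 4.25e-05), with r = 0.66 without the 2 most extreme mice and 0.69 with the sets of mouse numbers removed. Abcb1a and Slco1a4 had the same pattern. Abcb1a went from r = 0.02 by level to 0.74 relative to the list (rho = 0.69, adjusted permutation p = 3.09e-05 and 4.25e-05, r = 0.62 without 2 mice) and Slco1a4 from 0.18 to 0.71 (rho = 0.66, adjusted permutation p = 3.09e-05 and 7.56e-05, r = 0.66 without 2 mice). Mfsd2a, also a transporter, did not, at 0.24 by level and 0.27 relative to the list (adjusted permutation p = 0.154 for the relative value, r = 0.09 without 2 mice). The same list was subtracted in both regions. Levels of list genes that are particular to a mouse and shared by its regions would enter these relative values, and their part was not tested.

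For Pdgfrb the relative values had r = 0.46 (rho = 0.47, adjusted permutation p = 0.00538 and 0.00578, r = 0.36 without 2 mice). The Flt1 relation (r = 0.49, rho = 0.35, adjusted permutation p = 0.00236 and 0.0541) rested on 2 mice, since r was 0.27 without them. Cdh5 (r = 0.21), Ocln (0.16) and Tjp1 (0.33) had adjusted permutation p-values for r of 0.0647 to 0.424. By level, Tjp1 had a relation between the regions (r = 0.55, rho = 0.38, adjusted permutation p = 0.00102 and 0.0304), which was 0.31 without 2 mice, and whether it differed from those of the other genes was not tested.

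**Figure D4:**
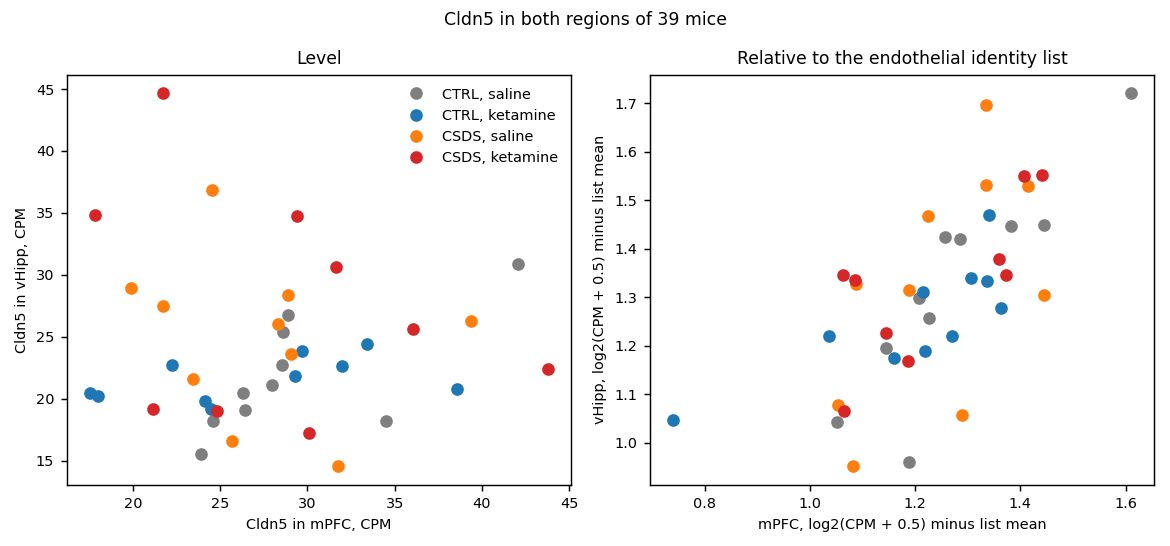
Cldn5 in the vHipp (y axis) against the mPFC (x axis) of the 39 mice with both regions, as TMM-normalized CPM on the left and as log2(CPM + 0.5) minus the mean of the 21 endothelial identity genes on the right; color gives the group. The levels on the left show no trend (r = -0.02 after removing group means), and the relative values on the right rise together (r = 0.70).

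Pecam1, the endothelial adhesion molecule, did not vary like the other genes but fell into 3 levels, and each mouse had the same level in both regions. The levels were read from the values, after setting Pecam1 relative to the endothelial identity list, at the largest gap and the next one over it, so they are a description and were not tested. In the mPFC the gaps between levels were 2.95 and 0.31 on the log2 scale, beside 0.11 for the next largest gap, and in the vHipp 3.47 and 0.40 beside 0.12. All 39 mice with both regions fell into the same level in each.

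The low level held 3 mice, 13 (CSDS saline), 25 (CTRL ketamine) and 29 (CTRL saline). Their mPFC libraries had 1, 7 and 5 counts of Pecam1, or 0.0642, 0.343 and 0.239 CPM. Their vHipp libraries had 0 counts, which allows 0.142 to 0.164 CPM at 3 counts of the library total (counting error only). Of 17202 genes with a median above 0.5 CPM in the other libraries, Pecam1 was the 1 gene that lay under 20% of that median in all libraries of the 3 mice. Cldn5, Cdh5 and Flt1 were counted in the same libraries. Of 21 expressed neighbours within 500 kb on chromosome 11, 1 (1810010H24Rik) lay below the range of the other mice in any library of the 3.

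The middle level held 14 mice, with 7.28 to 13.6 CPM in the mPFC and 5.17 to 11.2 CPM in the vHipp. The high level held 22 mice by the mPFC (12.3 to 32.6 CPM) and 23 by the vHipp (9.72 to 29.3 CPM). In the vHipp the middle level held 5 CTRL saline, 3 CTRL ketamine, 5 CSDS saline and 1 CSDS ketamine mice, and the high level held 4, 6, 4 and 9 in that order. What sets the levels was not tested. They enter every group value of Pecam1, such as 8.08 ± 4.15 CPM in CTRL saline and 15.6 ± 6.42 CPM in CSDS ketamine vHipp. Without mice 13, 25 and 29, a choice made after seeing the data, the stress difference of Pecam1 in the vHipp was 0.34 (SE 0.16, unadjusted p = 0.046, adjusted p = 0.64, edgeR), and the region difference was 0.46 (SE 0.12, adjusted p = 0.000622).

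**Figure D5:**
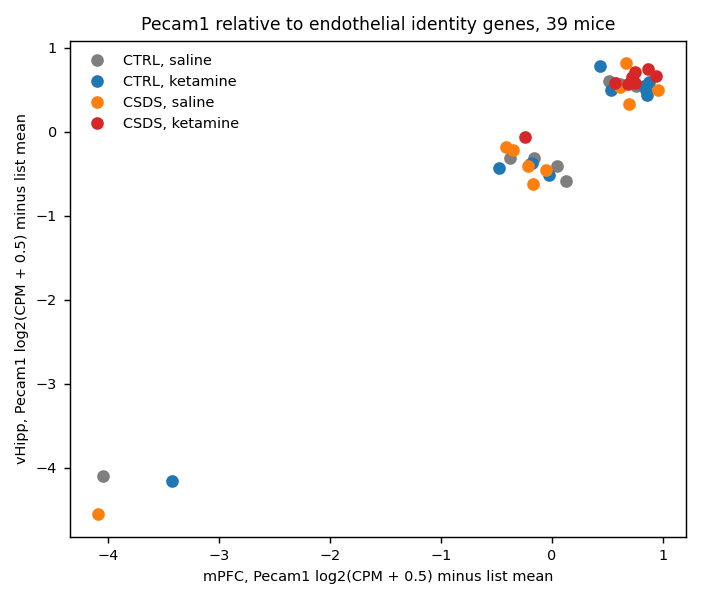
Pecam1 as log2(CPM + 0.5) minus the mean of the 21 endothelial identity genes in the vHipp (y axis) against the mPFC (x axis) of 39 mice; color gives the group. The points form 3 separate clusters on the diagonal, with 3 mice at the lower left, 14 in the middle and 22 at the upper right.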

How the data were processed

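Bulk RNA of mPFC and vHipp punches was sequenced by the authors from stranded poly(A) libraries (RNA integrity number of at least 8) and demultiplexed with bcl2fastq 2.20.0.422, per the submitters' processing notes. The deposited values are unnormalized read counts, 1 whole number for each gene in each library, on GRCm38. The aligner, the counting program and its strand setting are not given in the sources used here. Groups, treatment, region and mouse number came from the labels. The social box, a covariate of the study's own DESeq2 model, is not in them, nor is the cage. Mice were kept in groups of 4 within a stress arm, so p-values here treat cage mates as independent and may be too small. In alternatives, 5 sets of consecutive mouse numbers (a run of 4 in each stress arm) were used, which span both arms and are not known to match a box or a cage.

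Genes with more than 10 counts and detected in more than 3 libraries were tested with edgeR 4.0.16 (quasi-likelihood, TMM, R 4.3.3), all groups of a region in one fit without covariates, two-sided, with Benjamini-Hochberg adjustment over all genes and a threshold of 0.05. SE was the log2 fold change over the root of F. CPM used TMM within a region, and RPKM divided it by the summed exon length supplied with the counts. GENCODE gave the same start and end coordinates as the count table for the members. Among the group comparisons, Cldn5 alone was also tested by permutation (100000 resamples, exact where a group had 9 mice). The 34 correlations were tested by permutation as well, with 100000 pairings each. These tests used scipy 1.17.1, numpy 2.4.6 and pandas 2.3.3 in Python 3.11.15. Figures were drawn with matplotlib 3.10.9. The scripts were tested on simulated data.

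Alternatives were DESeq2 1.42.0, library totals, RLE, other filters, set covariates, sets left out, the 2 groups alone, pseudocounts of 0.1 and 1, and the vHipp of mouse 9 left out. Leaving out each vHipp library, mice 11 and 17, mice 5, 7, 11 and 17, mice 9 and 13, and mice 13, 25 and 29 was added after seeing the data. Libraries of both regions with the same mouse number come from one animal, so the number pairs the regions, and the paired fit is given beside the region results.

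The 10 genes and all 17 gene lists were chosen with earlier results of these data known. The cortical list is not reported here as a whole. Named besides the 10 were, per list and comparison, at most 4 genes of smallest unadjusted p under 0.05 and the 2 of highest RPKM, the 5 highest claudins and the 5 genes most like Cldn5 in each region. Gm42686, Abcb1b, Sele in the vHipp, 1810010H24Rik and the genes held by more than 1 list were named after their values were seen. P-values measure the spread between mice together with that of library preparation and of counting. The part of counting is larger for genes with fewer counts and was not separated.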

Additional observations from a re-analysis of the deposited data

Results flagged for a closer look

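A library was singled out when its value lay far from every other library of its group (the gap to the next library against the range of the group). Of 80 combinations of gene, region and group, 9 had such a library, and chance alone gives about 1 in 20.

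For Pecam1 there were 7. In the mPFC the lowest library was at 0.239 CPM in CTRL saline (mouse 29), 0.343 CPM in CTRL ketamine (mouse 25) and 0.0642 CPM in CSDS saline (mouse 13). In the vHipp the same 3 mice were at 0 CPM in their groups (mouse 29 in CTRL saline, mouse 25 in CTRL ketamine, mouse 13 in CSDS saline). The highest CSDS ketamine library in the mPFC was at 32.6 CPM (mouse 3), which also had the highest endothelial identity sum of the mPFC at 521 CPM.

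Cdh5 was at 24.6 CPM in 1 CTRL saline mPFC library (mouse 30), above the rest of its group. Tjp1 was at 77.1 CPM in 1 CTRL saline vHipp library (mouse 24), below the rest of its group.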

How the results depend on the processing

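No gene of the 10 was called in any within-region comparison or in the difference of the regions' stress effects under any alternative, and no value reversed among results that were called. Counts at an unadjusted p under 0.05 moved with the libraries included. In the mPFC over both treatments the count was 1, and 0 without the third set of mouse numbers. In the vHipp of saline mice it was 3, 1 with library totals or without the second set, and 0 without the first set, the fourth set, mouse 9, mice 9 and 13, or mice 13, 25 and 29, but 6 without mice 5, 7, 11 and 17. Leaving out 1 library gave 0 to 3, with 0 without mouse 2, 4, 9, 13, 15 or 38 and 1 without mouse 8, 27, 28 or 35. In the vHipp of ketamine mice the count was 1, with 5 without the second set, 0 without the third set, the fifth set, mice 11 and 17, or mice 5, 7, 11 and 17, and 2 without mice 13, 25 and 29. Of all genes, 894 of 28371 were higher without the second set, 572 of 28223 without the third and 468 of 28275 without the fifth. Without mice 13, 25 and 29 it was 735 of 28746 genes. Leaving out 1 library gave 0 to 5, with 0 without mouse 11, 5 without mouse 5 or 6, 4 without mouse 1 or 16, 3 without mouse 3, and 2 without mouse 7, 12, 25 or 40. Over both treatments the vHipp count was 5, with 3 without the third or the fifth set, 1 without mice 11 and 17, 5 without mice 5, 7, 11 and 17, and 4 to 6 without 1 library. Of all genes, 1213 of 28223 were higher without the third set and 947 of 28275 without the fifth.

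Between the regions 6 genes were called, 10 with library totals or without mice 13, 25 and 29, and 9 with the replicate block that pairs the regions. Without mice 13, 25 and 29, 14963 of 31273 genes were called. For the stress difference between regions the count was 3, with 1 without the first set or mouse 9, 6 without the second set, 0 without the third or the fifth set, and 4 with the replicate block. Of all genes, 917 of 30490 were below 0 at an unadjusted p under 0.05 without the first set, and 942 of 31481 without mouse 9. The Cldn5 permutation results kept their side of 0.05 under all 4 alternatives in each comparison. The cause of these shifts was not tested. Counts near 0 limit the precision of Pecam1 in 3 mice (0 to 7 counts) and of Lcn2, Selp, Sele and Ttr. The social box and the cage are not in the labels and were not modelled, and cell numbers were not measured.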
